A study of Mus musculus with 26 samples.

Results

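The mitosis genes described here are 46 genes, given by symbol, that run cell division from the entry into mitosis to the separation of the daughter cells. Of the 46 genes, 44 had a probe set of their own on the arrays, out of 22180 genes with such a probe set, and all 44 were among the 14787 genes bright enough to be tested. The probe table listed none for Ccnb1 (cyclin B1), and the sole probe set of Ncapg (a condensin subunit) was shared with Lcorl, so neither has values. Where a gene had more than 1 probe set, the brightest over the 26 arrays stood for it.

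Expression was measured on Affymetrix Mouse Gene 2.0 ST arrays in J1 cells, a line of mouse embryonic stem (ES) cells, after knockdown of Mettl14 or Mettl3, which encode the paired subunits of the enzyme that writes N6-methyladenosine on messenger RNA. A time course held Mettl14 knockdown, Mettl3 knockdown and scramble control cells, each at 0 h, 4 h and 8 h, and a repeat set held each knockdown at 0 h with a scramble control of its own. Each of the 13 groups had 2 arrays (n = 2), which the titles call biological replicates without placing them in separate experiments, so a p-value reflects how these arrays scatter, which may be technical scatter. All groups grew on irradiated fibroblast feeder cells, whose RNA can enter the samples, and poly(A) RNA was hybridised. The labels mention both a lentiviral hairpin and a transfected small interfering RNA without assigning either to an array, and do not name what the cells were kept in for 4 h or 8 h. In the repeat set, replicate 2 of each scramble control is described as 4 h in 1 field and as 0 h in its title, source and time fields, and was taken as 0 h.

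Values are log2 signals made by the robust multi-array average (RMA). It is meant to equalise the distributions of the arrays, so each change is relative to the other probes of an array. The mean over all probe sets still differed between times and sets. A difference of 1 is a 2-fold difference, and ± gives the standard error of a difference from limma. A gene was called lower or higher where limma's p, adjusted by the Benjamini-Hochberg method over the 14787 genes, was below 0.05. Levels of a gene were compared between groups of the same set and never with the level of another gene. The Mettl14 probe set stood at 30.9% of scramble in Mettl14 knockdown cells of the time course and at 39% in the repeat set. The sole Mettl3 probe set, which also detects Tox4, stood at 26.9% and 23.6% of scramble in Mettl3 knockdown cells of the time course and the repeat set.

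Entry into mitosis is driven by CDK1 bound to A- and B-type cyclins and released from inhibition by CDC25 phosphatases. Polo-like and Aurora kinases then build the spindle, kinetochores attach chromosomes to it, and the spindle checkpoint holds back the anaphase-promoting complex until every chromosome is attached. Most genes of this programme are transcribed late in the cell cycle from promoters with a cell cycle homology region (CHR) and CCAAT boxes, which bind the MuvB complex with B-MYB or FOXM1 and the factor NF-Y, and which the DREAM complex represses in resting cells. ES cells divide quickly, with short gap phases, and express these genes at high levels.

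Mitosis genes were lower after either knockdown, and no mitosis gene was called higher in any knockdown comparison, except Plk4 under some alternative settings (in the repeat set under another scaling, dim filter or variance model, and in Mettl3 knockdown at 8 h without its replicate 2). At 0 h of the time course, 30 of 44 genes were called lower in Mettl14 knockdown cells, where 20.1% of all tested genes were lower, and 31 of 44 in Mettl3 knockdown cells, where 18.6% were. None was called higher by limma in either, against 19.4% and 19.3% of all tested genes, and none had an unadjusted p below 0.05 in that direction. The median log2 change over the 44 genes was -0.24 in Mettl14 knockdown and -0.23 in Mettl3 knockdown, beside medians of -0.00 and 0.00 over all tested genes. Both knockdowns were compared with the same scramble arrays, so they are not independent of each other. With arrays scaled to an equal median of 22 transcripts listed as long-lived, such as Actb and Gapdh, which lowered the median of all tested genes to -0.25 and -0.18 and raised the lower share of all calls to 85.7% and 80.9% (Mettl14 and Mettl3), compared with 50.9% and 49.1%, all 44 genes were called lower in each. Another scaling, chosen after seeing the data, set the median deviation of these transcripts from their own means to 0. It gave 29 and 29 genes called lower, and quantile normalization again within the set gave 29 and 30. The changes of the 44 genes as deposited were modest: over 8 knockdown comparisons at all times and in both sets, no gene was lowered 2-fold. Because RNA of bulk cultures was measured, fewer cells in division and less RNA per dividing cell cannot be told apart.

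The repeat set, with its own control arrays, gave 18 of 44 genes lower in Mettl14 knockdown cells (16.9% of all tested genes) and 26 of 44 in Mettl3 knockdown cells (17.4% of all). None was called higher by limma, against 19.4% and 17.9% of all tested genes, and the median changes were -0.11 and -0.19. Plk4 in Mettl14 knockdown had an unadjusted p below 0.05 upward, and no gene had one in Mettl3 knockdown. Of the 30 genes lower in Mettl14 knockdown of the time course, 17 were lower again, which is 56.7% of the 30 and 94.4% of the 18, and the 1 gene found only in the repeat was Cdc25b. For Mettl3, 24 genes were shared, which is 77.4% of the 31 and 92.3% of the 26, with Cdc25b and Cenpa found only in the repeat. The matching shares over all tested genes called lower are not given here. The repeat counts depended on single arrays. For Mettl14 the 18 became 11 without scramble replicate 1, 8 without scramble replicate 2 and 10 without knockdown replicate 1, and for Mettl3 the 26 became 16 without scramble replicate 2 and 17 without knockdown replicate 1. Without replicate 2 of both scramble controls, the arrays with the field that says 4 h, 6 genes were called lower in Mettl14 knockdown and 12 in Mettl3 knockdown, where the remaining control array is taken to vary like the other groups. With arrays scaled to an equal median of the long-lived transcripts, the repeat had 15 genes lower and Plk4 higher for each knockdown. Medians were then -0.07 and -0.10 beside 0.04 and 0.10 over all tested genes. The lower share of all calls was 34.9% and 26.3%, compared with 46.5% and 49.3%. With their median deviation at 0, 22 and 29 mitosis genes were lower, and quantile normalization again gave 17 and 25.

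**Figure D1:**
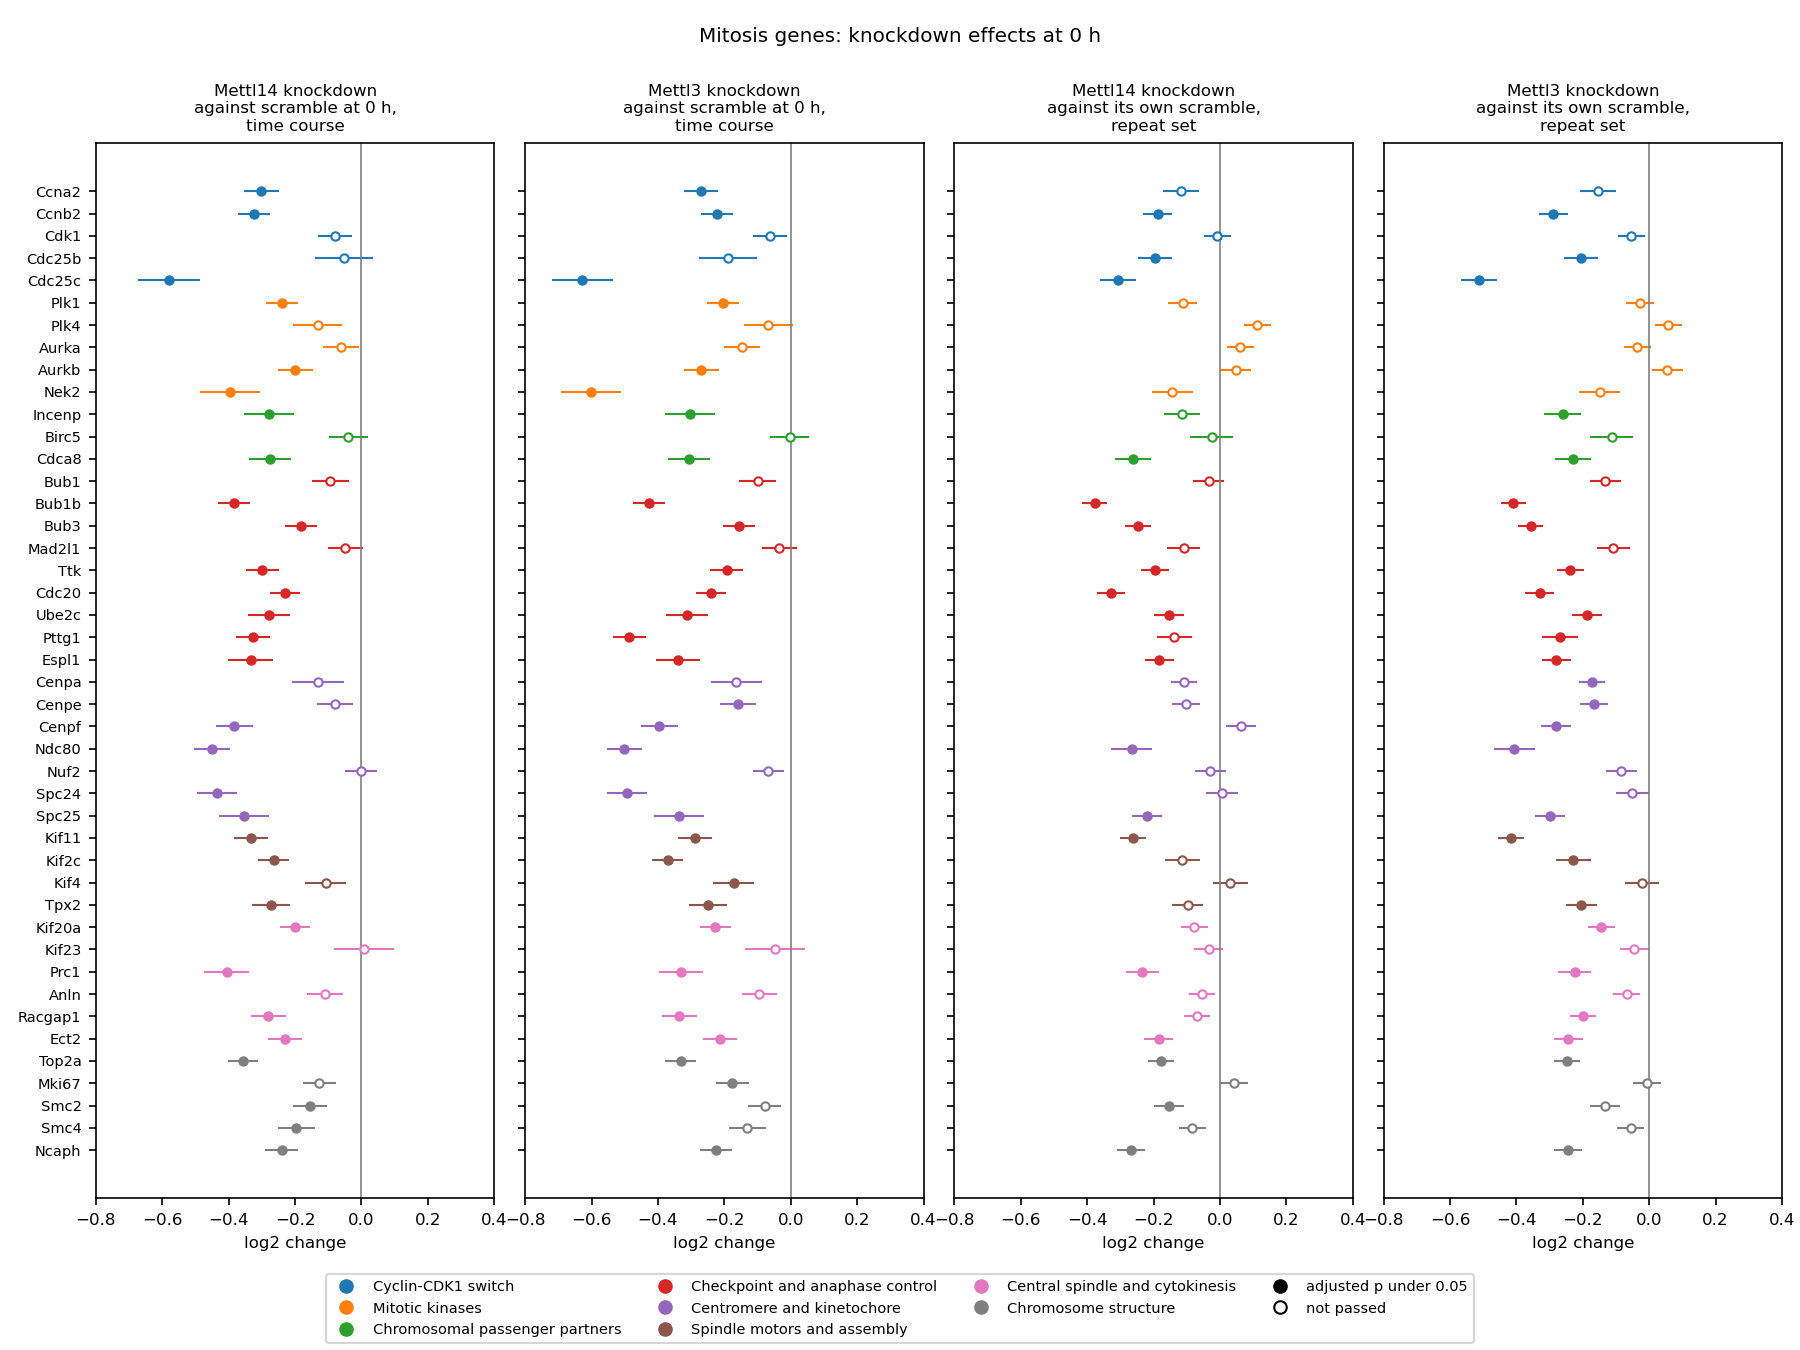
Log2 change (knockdown minus scramble, ± standard error from limma, 2 arrays a group) of each of the 44 mitosis genes at 0 h, grouped by role, for both knockdowns in the time course and in the repeat set; filled points had an adjusted p below 0.05. Nearly all points lie below 0, between -0.63 and 0.11, and no filled point lies above it.

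Across the 8 knockdown comparisons (both knockdowns at 0 h, 4 h and 8 h, and both in the repeat set), 16 genes were called lower in all 8. They were Ccnb2, Cdc25c, Cdca8, Bub1b, Bub3, Ttk, Cdc20, Ube2c, Espl1, Ndc80, Spc25, Kif11, Prc1, Ect2, Top2a and Ncaph. A further 21 genes were called in 1 to 7 comparisons. Aurka, Plk4, Birc5, Bub1, Mad2l1, Nuf2 and Kif23 were called in none. These 7 without a call belong to 5 of the 8 roles. The shares of all tested genes called lower in all 8 or in none are not given here, so these counts have no reference.

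Promoters of 38 of the 46 genes, each running from 250 bases before to 50 bases after the transcription start, were found in RefSeq (build GRCm38.p6). No entry was matched for Cdc25c, Spc24, Kif20a, Ccna2, Incenp, Tpx2, Smc4 or Aurkb. The letters TTTGAA of the CHR, read on both strands, were in the promoters of 27 of 38 genes (71.1%), against 20.2% of 27025 genes in the same table. The CCAAT box, also on both strands, was in 29 of 38 (76.3%), against 41.1%, and both motifs were in 24 of 38 (63.2%), against 7.97%. The variant TTCGAA was in 4 of 38 (10.5%), against 1.80%. Of the E2F motifs, TTTGGCGC was in no member's promoter, against 0.585% of all, and TTTCGCGC was in that of Cdk1 alone (2.63% of 38), against 0.374% of all. None of these motifs is part of another. A match is a description and not a bound site, and a missing match says only that these letters are not in this window.

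Positions were counted over 1 promoter a gene, the entry with the lowest start coordinate, because the second entries of some genes overlap their first. The 34 TTTGAA matches of the 38 genes lay between -179 and 40 bases from the start, with a median of -1.5, and 26 of them (76.5%) fell within 50 bases of it, against 24.9% of the matches in all promoters. The 61 CCAAT matches lay between -228 and 18, with a median of -67, and 41 of them (67.2%) lay in the 100 bases before the start, against 44.2% of those in all promoters. Among the 36 measured genes with a promoter, TTTGAA was present in 14 of 15 genes called lower in all 4 comparisons at 0 h (93.3%), in 8 of 12 called in 1 to 3 (66.7%) and in 4 of 9 called in none (44.4%). The variant TTCGAA was not counted here. It was present without TTTGAA in Bub1, called in none, and in Cdc25b, called in 2. The genes were grouped by calls after the values were seen, and the relation of TTTGAA to the calls was not tested. Promoter sequences are printed for 4 genes called lower in all 8 comparisons (Prc1, Ndc80, Kif11 and Top2a) and for 2 called in none, of which Kif23 holds both motifs and Plk4 neither. Each is written 5′ to 3′ on the strand of its gene, with capitals marking the CHR letters, their variant or the CCAAT box on either strand. Read on the opposite strand the CHR letters are TTCAAA, and there the box has the letters ATTGG. Prc1 lies on the plus strand at chr7:80294201-80294500, the first of its 2 entries. Ndc80 lies on the minus strand at chr17:71526808-71527107, Kif11 on the plus strand at chr19:37376132-37376431 and Top2a on the minus strand at chr11:99024140-99024439. Kif23 lies on the minus strand at chr9:61946750-61947049 and Plk4 on the plus strand at chr3:40799701-40800000.
Prc1: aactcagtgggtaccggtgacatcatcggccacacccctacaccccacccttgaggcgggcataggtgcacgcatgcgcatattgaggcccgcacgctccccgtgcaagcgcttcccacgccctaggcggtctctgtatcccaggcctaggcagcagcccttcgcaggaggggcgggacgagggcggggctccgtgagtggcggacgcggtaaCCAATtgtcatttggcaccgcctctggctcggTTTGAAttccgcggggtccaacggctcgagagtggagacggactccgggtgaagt
Ndc80: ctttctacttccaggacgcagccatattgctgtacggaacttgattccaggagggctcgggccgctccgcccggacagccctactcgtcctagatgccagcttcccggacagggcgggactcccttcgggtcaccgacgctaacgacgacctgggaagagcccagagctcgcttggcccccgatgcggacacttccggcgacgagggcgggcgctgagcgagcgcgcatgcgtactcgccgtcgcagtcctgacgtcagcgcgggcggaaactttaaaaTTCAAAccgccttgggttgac
Kif11: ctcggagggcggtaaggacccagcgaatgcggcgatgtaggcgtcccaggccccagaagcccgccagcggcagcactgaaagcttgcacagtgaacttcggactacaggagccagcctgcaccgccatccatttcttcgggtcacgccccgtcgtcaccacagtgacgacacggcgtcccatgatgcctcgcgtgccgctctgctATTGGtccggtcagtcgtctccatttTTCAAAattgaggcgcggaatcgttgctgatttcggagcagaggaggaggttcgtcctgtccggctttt
Top2a: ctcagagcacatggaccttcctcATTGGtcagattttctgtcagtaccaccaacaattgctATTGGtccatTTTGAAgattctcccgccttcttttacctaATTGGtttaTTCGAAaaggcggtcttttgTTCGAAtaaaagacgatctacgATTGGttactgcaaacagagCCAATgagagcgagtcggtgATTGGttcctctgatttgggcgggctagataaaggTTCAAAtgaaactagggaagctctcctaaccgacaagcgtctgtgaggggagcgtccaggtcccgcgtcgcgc
Kif23: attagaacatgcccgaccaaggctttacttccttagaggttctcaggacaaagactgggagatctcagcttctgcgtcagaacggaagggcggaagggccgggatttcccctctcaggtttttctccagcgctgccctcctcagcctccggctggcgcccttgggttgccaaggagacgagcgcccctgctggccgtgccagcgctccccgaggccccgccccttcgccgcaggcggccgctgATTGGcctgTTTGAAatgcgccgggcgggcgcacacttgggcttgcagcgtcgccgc
Plk4: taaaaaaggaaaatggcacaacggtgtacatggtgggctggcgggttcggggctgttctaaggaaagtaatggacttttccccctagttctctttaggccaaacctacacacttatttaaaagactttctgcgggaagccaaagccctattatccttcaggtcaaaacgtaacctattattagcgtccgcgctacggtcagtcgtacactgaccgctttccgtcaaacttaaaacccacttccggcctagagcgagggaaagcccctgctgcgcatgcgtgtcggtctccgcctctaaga
The Prc1, Kif11 and Kif23 promoters each hold 1 CCAAT box upstream of 1 TTTGAA, that of Ndc80 holds TTTGAA without a CCAAT box, and that of Top2a holds 2 TTTGAA and 6 CCAAT boxes.

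**Figure D2:**
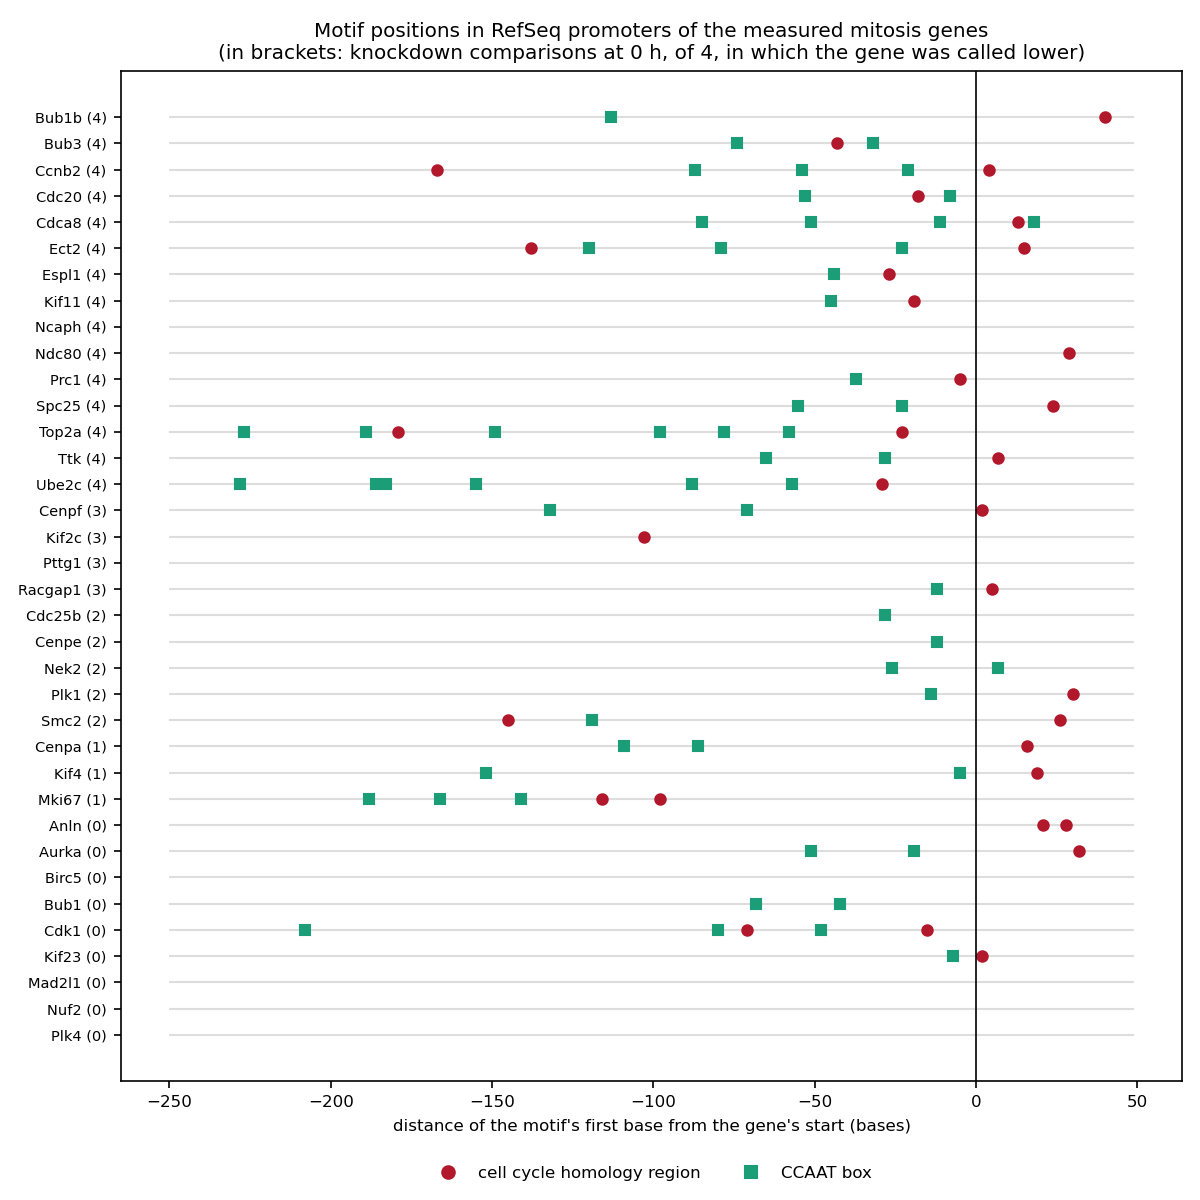
Positions of the CHR letters TTTGAA and of the CCAAT box (either strand, in bases from the transcription start) in the promoters of the 36 measured mitosis genes with a RefSeq promoter; the number in brackets is how many of the 4 knockdown comparisons at 0 h called the gene lower. One promoter a gene is drawn, and over these genes the CHR letters have a median position of 2 and the CCAAT boxes one of -61.5.

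Among the genes of the cyclin-CDK1 switch, 3 of 5 were called lower at 0 h in each knockdown of each set. Cdc25c, a phosphatase that activates CDK1 at the entry into mitosis, had log2 signals of 8.94 and 8.75 in Mettl14 knockdown and 8.72 and 8.88 in Mettl3 knockdown, against 9.46 and 9.39 in scramble. In the repeat set it had 8.81 and 8.69 in Mettl14 knockdown against 9.06 and 9.05 in its scramble, and 8.62 and 8.68 in Mettl3 knockdown against 9.13 and 9.18. Every knockdown array was below both arrays of its control. The changes were -0.58 ± 0.09 (adjusted p = 0.000324) and -0.63 ± 0.09 (adjusted p = 0.00019) in the time course, the lowest of the 44 genes for each knockdown there, and -0.31 ± 0.05 (adjusted p = 0.00524) and -0.51 ± 0.05 (adjusted p = 0.000659) in the repeat. Ccnb2, encoding cyclin B2, was called lower in all 4, by -0.32 and -0.22 in Mettl14 and Mettl3 knockdown of the time course and -0.19 and -0.29 in the repeat. Ccna2, encoding cyclin A2, was called lower in the time course (-0.30 and -0.27), while its repeat changes of -0.12 and -0.15 did not pass. Cdk1, the kinase itself, did not pass at 0 h in any comparison, with changes between -0.08 and -0.01. Cdc25b, a phosphatase that acts before CDC25C, was called lower only in the repeat set at 0 h (-0.20 and -0.21), and its time course changes of -0.05 and -0.19 had standard errors of 0.09. The differences between the sets did not pass the test for Cdc25b.

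Of the 5 mitotic kinases, Plk1, Aurkb and Nek2 were called lower in both knockdowns of the time course and none was called in the repeat set. Plk1, which acts at centrosomes, kinetochores and the cleavage site, changed by -0.24 ± 0.05 in Mettl14 and -0.20 ± 0.05 in Mettl3 knockdown at 0 h. Nek2, a kinase that splits the paired centrosomes, changed by -0.40 ± 0.09 and -0.60 ± 0.09. Aurka, the Aurora kinase of the spindle poles, and Plk4, the kinase that starts centriole duplication, did not pass in any knockdown comparison, with 0 h changes between -0.15 and 0.11 over both genes and sets. Aurkb, the Aurora kinase at the centromere, works in the chromosomal passenger complex with the products of Incenp, Birc5 and Cdca8. Cdca8, encoding borealin, was called lower in all 4 comparisons at 0 h (-0.28, -0.31, -0.26 and -0.23, in the order Mettl14 and Mettl3 of the time course, then of the repeat), and Incenp, the scaffold, in 3, with -0.11 in Mettl14 knockdown of the repeat set not passing. Birc5, encoding survivin, was called in none, with changes between -0.11 and -0.00. Whether the genes of a complex differed from each other was not tested.

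Of the checkpoint and anaphase genes, 7 of 9 were called lower in each knockdown of the time course, and 6 of 9 for Mettl14 and 7 of 9 for Mettl3 in the repeat set. Bub1b, encoding the checkpoint protein BUBR1, had signals of 11.12 and 11.08 in Mettl14 knockdown and 11.11 and 11.02 in Mettl3 knockdown, against 11.52 and 11.46 in scramble. In the repeat set it had 10.93 and 10.93 against 11.31 and 11.31 for Mettl14 knockdown and its scramble, and 10.82 and 10.83 against 11.23 and 11.24 for Mettl3 knockdown and its scramble. The knockdown arrays lay below every control array of their set, and the gap was of similar size each time. Its changes were -0.39 ± 0.05 (adjusted p = 4.37e-05), -0.43 ± 0.05 (adjusted p = 2.03e-05), -0.38 ± 0.04 (adjusted p = 0.00046) and -0.41 ± 0.04 (adjusted p = 0.000377), for Mettl14 and Mettl3 of the time course and then of the repeat. It was the gene with the smallest adjusted p of the 44 in both comparisons of the repeat set. Bub3, Ttk (the checkpoint kinase MPS1), Espl1 (separase, which cuts cohesin) and Ube2c (a ubiquitin-conjugating enzyme of the anaphase-promoting complex) were called lower in all 4, by between -0.15 and -0.36.

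Cdc20, the activator of the anaphase-promoting complex, had 12.25 and 12.25 in Mettl14 and 12.25 and 12.23 in Mettl3 knockdown, against 12.45 and 12.52 in scramble. In the repeat set the values were 11.82 and 11.83 in Mettl14 knockdown against 12.13 and 12.18 in its scramble, and 11.92 and 11.87 in Mettl3 knockdown against 12.23 and 12.22 in its scramble. No knockdown array reached its controls. The changes were -0.23 ± 0.05 (adjusted p = 0.00147) and -0.24 ± 0.05 (adjusted p = 0.00113) in the time course, and -0.33 ± 0.04 (adjusted p = 0.00135) and -0.33 ± 0.04 (adjusted p = 0.00149) in the repeat. Pttg1, encoding securin, the inhibitor of separase, had 7.82 and 7.76 in Mettl14 and 7.61 and 7.65 in Mettl3 knockdown, against 8.14 and 8.10 in scramble. Its repeat values were 8.15 and 8.19 in Mettl14 knockdown against 8.30 and 8.32, and 8.04 and 8.17 in Mettl3 knockdown against 8.35 and 8.39. The groups did not overlap, and Mettl3 knockdown arrays of the time course were the lowest of their set at 0 h. Pttg1 changed by -0.33 ± 0.05 (adjusted p = 0.000266) and -0.49 ± 0.05 (adjusted p = 1.11e-05) in the time course and by -0.27 ± 0.05 (adjusted p = 0.00891) in Mettl3 knockdown of the repeat, while -0.14 in Mettl14 knockdown of the repeat did not pass. Bub1, a kinase of the checkpoint, and Mad2l1, encoding MAD2, had changes between -0.13 and -0.03 and did not pass in any comparison.

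At the centromere and kinetochore, 4 of 7 genes were called lower in Mettl14 and 5 of 7 in Mettl3 knockdown of the time course, and 2 of 7 and 5 of 7 in the repeat. The NDC80 complex, which binds microtubules, is made from the products of Ndc80, Nuf2, Spc24 and Spc25. Ndc80 had 10.95 and 10.95 in Mettl14 and 10.92 and 10.88 in Mettl3 knockdown, against 11.43 and 11.38 in scramble. Its repeat signals were 10.78 and 10.65 in Mettl14 knockdown against 10.95 and 11.01, and 10.57 and 10.61 in Mettl3 knockdown against 10.95 and 11.04. All knockdown arrays were below their controls. Its changes were -0.45 ± 0.05 (adjusted p = 3.05e-05) and -0.50 ± 0.05 (adjusted p = 1.34e-05) in the time course, and -0.27 ± 0.06 (adjusted p = 0.0142) and -0.41 ± 0.06 (adjusted p = 0.00267) in the repeat. Spc25 was called lower in all 4 (-0.35, -0.34, -0.22 and -0.30), Spc24 in the time course alone (-0.43 and -0.49), and Nuf2 in none, with changes between -0.08 and -0.00. Cenpe, a kinetochore motor, and Cenpa, the histone variant of the centromere, were called lower in Mettl3 knockdown of the repeat (-0.17 and -0.17), and Cenpe also in that of the time course (-0.16). Cenpf, a large kinetochore protein, was called lower in 3 of 4, the exception being Mettl14 knockdown of the repeat.

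**Figure D3:**
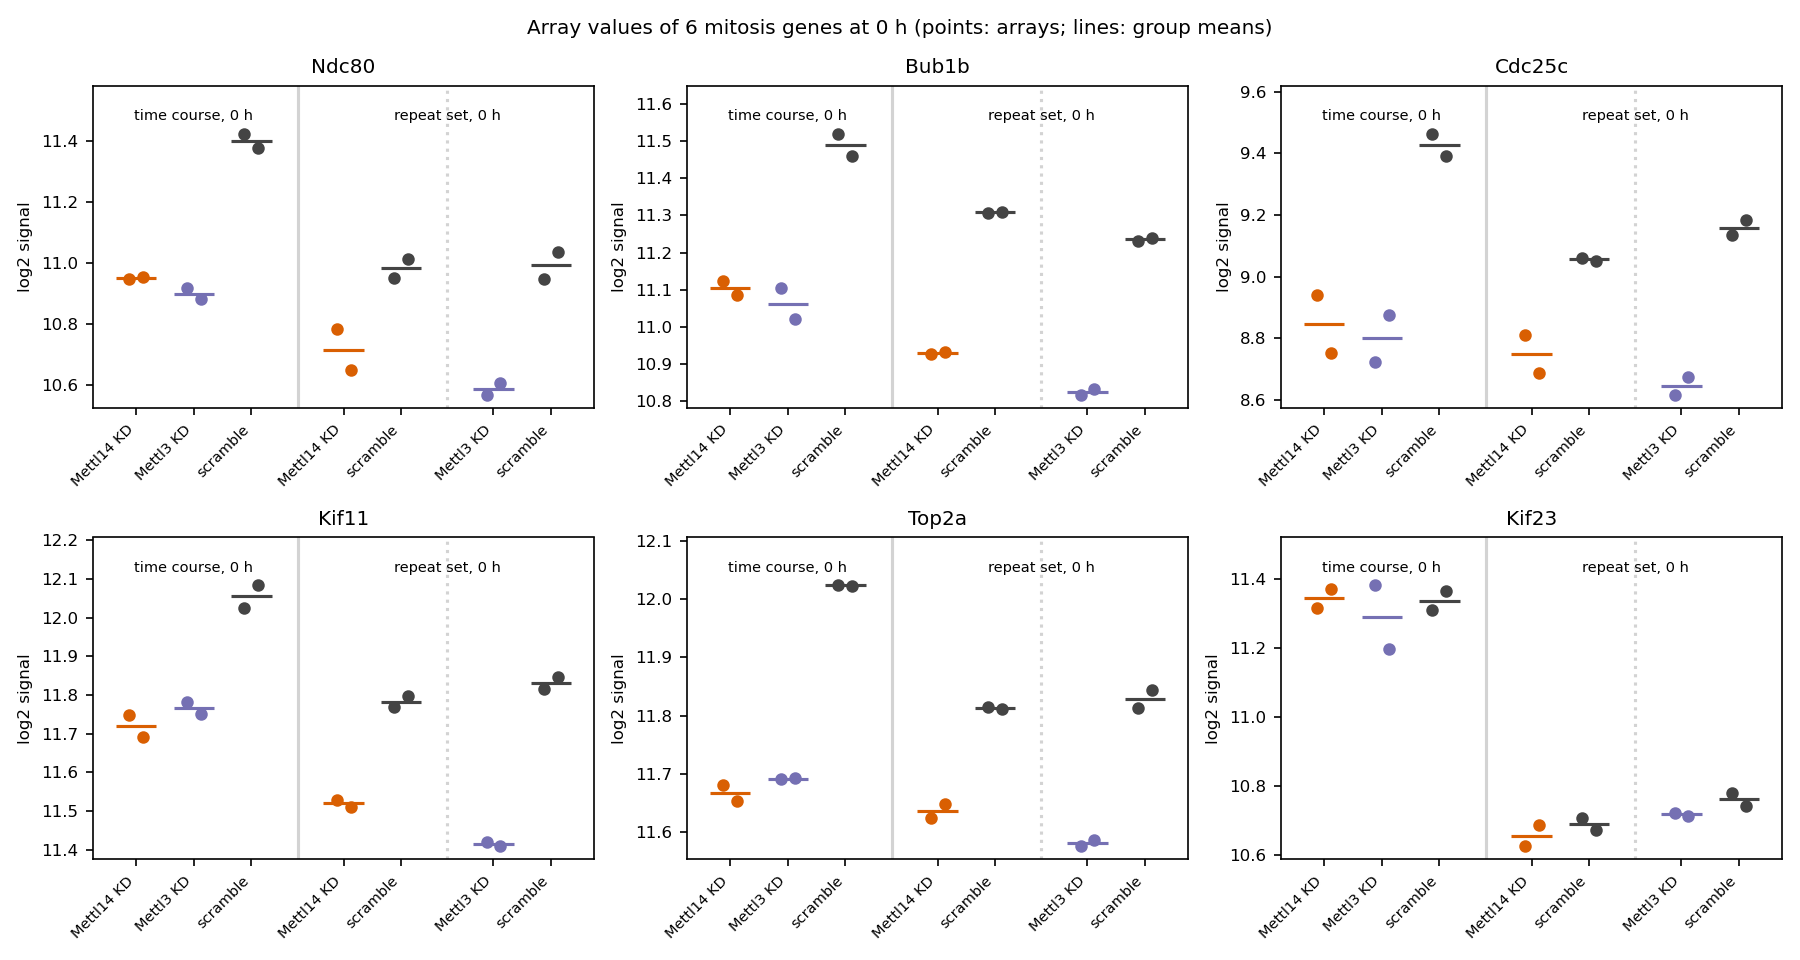
Log2 signal on each array at 0 h for Ndc80, Bub1b, Cdc25c, Kif11, Top2a and Kif23, by group, with the time course and the repeat set apart; each point is 1 array and each line the mean of a group. Knockdown arrays of the first 5 genes lie below all control arrays of their set, while those of Kif23 (for example 11.32 and 11.37 in Mettl14 knockdown against 11.31 and 11.37 in scramble of the time course) mix with the control arrays of their set.

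Kif11, the plus-end motor that pushes the spindle poles apart, had 11.75 and 11.69 in Mettl14 and 11.78 and 11.75 in Mettl3 knockdown, against 12.02 and 12.08 in scramble. Kif11 had in the repeat set 11.53 and 11.51 in Mettl14 knockdown against 11.77 and 11.80, and 11.42 and 11.41 in Mettl3 knockdown against 11.82 and 11.85. The groups did not overlap in either set. Kif11 changed by -0.33 ± 0.05 (adjusted p = 0.000225), -0.29 ± 0.05 (adjusted p = 0.000733), -0.26 ± 0.04 (adjusted p = 0.00268) and -0.42 ± 0.04 (adjusted p = 0.000418), for Mettl14 and Mettl3 of the time course and then of the repeat. Kif2c, which depolymerises microtubules, and Tpx2, which nucleates them and activates Aurora A, were called lower in 3 of 4, with -0.11 and -0.10 in Mettl14 knockdown of the repeat not passing. Kif4, a motor of chromosome arms and the central spindle, was called lower in Mettl3 knockdown of the time course alone (-0.17).

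In the central spindle, where the division plane is set, Prc1, which bundles antiparallel microtubules, and Ect2, which activates RhoA for cytokinesis, were called lower in all 4 comparisons. Prc1 changed by -0.41 and -0.33 in Mettl14 and Mettl3 knockdown of the time course, and by -0.23 and -0.22 in the repeat, and Ect2 by -0.23, -0.21, -0.18 and -0.24. Kif23 and Racgap1 encode the subunits of centralspindlin. Racgap1 was called lower in 3 of 4 (-0.28, -0.34 and, for Mettl3 in the repeat, -0.20), whereas Kif23 was called in none, with changes between -0.05 and 0.01. Kif20a, a motor that brings the passenger complex to the midzone, was called in 3 of 4, and Anln, encoding anillin of the contractile ring, in none at 0 h.

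Top2a, the topoisomerase that untangles sister chromatids, had 11.68 and 11.65 in Mettl14 and 11.69 and 11.69 in Mettl3 knockdown, against 12.02 and 12.02 in scramble. Its repeat signals were 11.62 and 11.65 in Mettl14 knockdown against 11.81 and 11.81, and 11.58 and 11.59 in Mettl3 knockdown against 11.81 and 11.84. The arrays of each group lay close together and apart from the controls. Top2a changed by -0.36 ± 0.05 (adjusted p = 6e-05), -0.33 ± 0.05 (adjusted p = 0.000114), -0.18 ± 0.04 (adjusted p = 0.0126) and -0.25 ± 0.04 (adjusted p = 0.00337) in the same order. Of the condensin genes, Ncaph was called lower in all 4 (-0.24, -0.22, -0.27 and -0.25), Smc2 in both Mettl14 knockdowns (-0.16 and -0.15) and Smc4 in Mettl14 knockdown of the time course (-0.20). Mki67, encoding the proliferation marker Ki-67 that coats mitotic chromosomes, was called lower in Mettl3 knockdown of the time course (-0.18) and did not pass elsewhere at 0 h, with changes of -0.13, 0.04 and -0.01.

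The knockdown effects at 4 h and 8 h were of the same direction. At 4 h, 33 of 44 genes were called lower in Mettl14 knockdown (19.5% of all tested genes) and 30 in Mettl3 knockdown (18.4%), with medians of -0.30 and -0.28. At 8 h the counts were 34 (19.8% of all) and 30 (19%), with medians of -0.31 and -0.32. No mitosis gene was called higher by limma or had an unadjusted p below 0.05 upward at either time, against 20% and 19.4% of all tested genes called higher at 4 h in Mettl14 and Mettl3 knockdown, and 23.8% in each at 8 h. Prc1, Cdc25c and Ndc80 were the lowest at 8 h: Prc1 changed by -0.82 in Mettl14 and -0.73 in Mettl3 knockdown, which is 56.7% and 60.2% of the scramble signal. Ndc80 changed by -0.77 and -0.71, and Cdc25c by -0.78 and -0.73. Cdk1, which did not pass at 0 h, was called lower at 8 h by -0.24 in Mettl14 and -0.22 in Mettl3 knockdown.

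**Figure D4:**
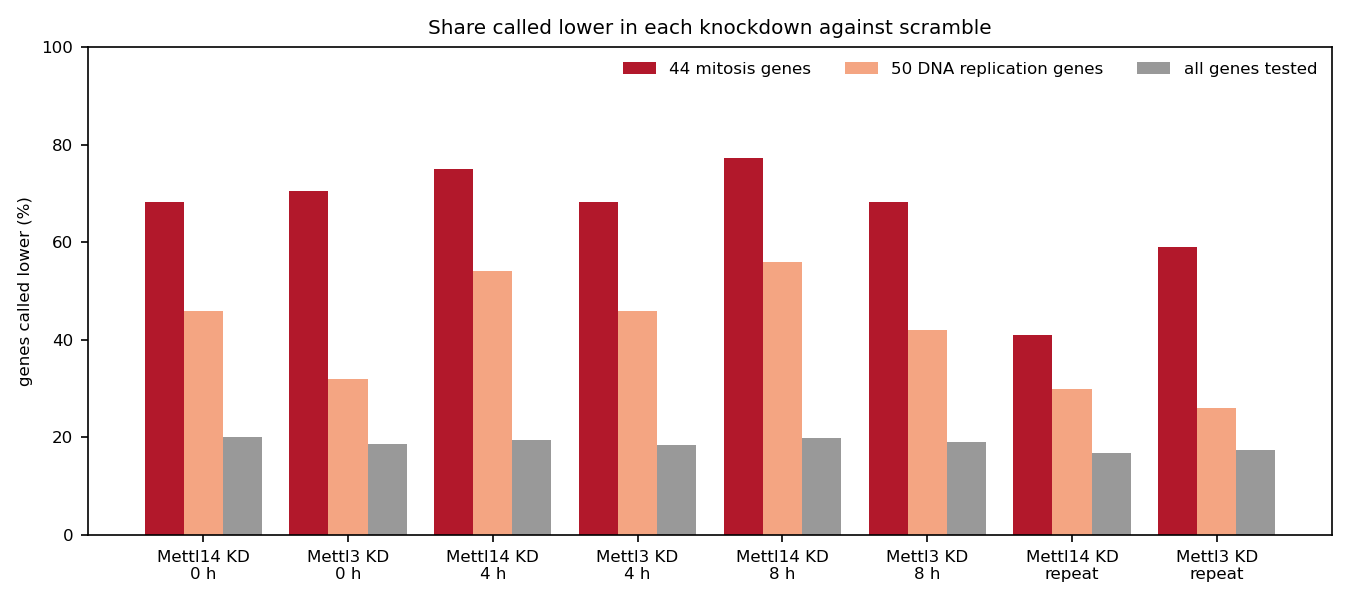
Share of genes called lower (percent) in the 8 knockdown comparisons, for the 44 mitosis genes, 50 DNA replication genes and all 14787 tested genes. The mitosis genes lie between 40.9% and 77.3%, all tested genes between 16.9% and 20.1%.

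Other genes with roles in mitosis, 138 listed by function and 129 tested, were called in both directions. At 0 h of the time course 66 were lower and 14 higher in Mettl14 knockdown (median -0.18), and 56 lower and 12 higher in Mettl3 knockdown (median -0.18). In the repeat set the counts were 41 lower and 12 higher for Mettl14 (median -0.10), and 53 lower and 7 higher for Mettl3 (median -0.12). By function, over the 4 comparisons in the same order, lower calls were made for 15, 14, 11 and 15 of 25 spindle and centrosome genes, and for 17, 12, 13 and 13 of 30 further centromere and kinetochore genes. Among them Kif22, a chromokinesin, changed by -0.67 and -0.51 in Mettl14 and Mettl3 knockdown of the time course, and Hmmr, a spindle assembly factor, by -0.43 and -0.54 in those of the repeat. Cep55, which recruits the abscission machinery, changed by -1.16 and -0.90 in Mettl3 knockdown of the time course and the repeat. In the other direction Zwint, a partner of the outer kinetochore, was called higher in all 4 (0.55, 0.40, 0.53 and 0.34), and Stag2, a cohesin subunit, likewise (0.42, 0.52, 0.25 and 0.40). The 17 genes of the anaphase-promoting complex had 6, 3, 1 and 3 lower calls and 2, 2, 2 and 1 higher calls. Over all tested genes, 20.1%, 18.6%, 16.9% and 17.4% were called lower in these 4 comparisons, and 19.4%, 19.3%, 19.4% and 17.9% higher.

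Genes for regulators of mitotic transcription were measured too, while their binding to these promoters was not. Of 13 genes for MuvB, DREAM, NF-Y and E2F subunits and their partners, 8, 5, 6 and 6 were called lower in the same order. Called higher were 2, 1, 0 and 1. Mybl2, encoding the activator B-MYB, was called lower in all 4, by -0.56, -0.44, -0.35 and -0.34. Foxm1, the activator that follows it, was called higher in Mettl14 knockdown of the time course (0.18, adjusted p = 0.0407), and its other 0 h changes of 0.15, 0.05 and 0.09 did not pass. The 0.18 is smaller than the shift of all genes in that comparison under the equal median of long-lived transcripts (-0.25). That shift was -0.01 with their median deviation at 0 and 0.02 with quantile normalization again. Lin37, a MuvB subunit, changed by -0.49 and -0.47 in the time course, and Rbl2, encoding the DREAM pocket protein p130, by -0.95 and -1.21 in Mettl14 and Mettl3 knockdown of the repeat. DNA replication genes, which act before mitosis, had 23, 16, 15 and 13 lower and 3, 3, 3 and 4 higher calls of 50, and medians of -0.13, -0.10, -0.08 and -0.05. Beside both lists, the shares of all tested genes were 20.1%, 18.6%, 16.9% and 17.4% lower and 19.4%, 19.3%, 19.4% and 17.9% higher. The difference between the mitosis and replication lists was not tested.

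Several features of the cultures moved with the knockdowns. Of all tested genes, 19.4%, 19.3%, 19.4% and 17.9% were called higher and 20.1%, 18.6%, 16.9% and 17.4% lower, in the same order. Of 5 tested genes of the p53 pathway, 4 were called higher in each knockdown of the time course. The repeat had 2 of them higher and 1 lower for Mettl14, and 1 higher and 2 lower for Mettl3. Cdkn1a, the CDK inhibitor p21, changed by 1.32 in Mettl14 and 1.35 in Mettl3 knockdown of the time course, but by 0.33 and -0.04 (adjusted p = 0.563) in the repeat. Of 28 feeder fibroblast markers, 27 were measured and 23 tested (Postn, Lum, Dcn and Fap were too dim), and 12, 11, 9 and 9 were called higher and 0, 1, 0 and 0 lower in the same order. Their summed signal at 0 h of the time course, in kilo-units of linear signal, was 12.2 to 12.6 in Mettl14 and 11.9 to 12.2 in Mettl3 knockdown, against 7.27 to 7.36 in scramble. In the repeat it was 12.5 to 12.9 in Mettl14 knockdown against 9.84 to 9.96, and 11.3 on both arrays of Mettl3 knockdown against 8.81 to 8.88. Of 12 ES cell markers, 11 were tested (Dppa5a was too dim), and 9, 10, 11 and 10 were called lower with none called higher. Their summed signal was 29.1 to 29.5 in Mettl14 and 28.9 to 29.4 in Mettl3 knockdown of the time course, against 40.9 to 41.0 in scramble, and 29.9 to 30.2 and 30.0 to 30.2 in Mettl14 and Mettl3 knockdown of the repeat, against 38.6 to 39.0 and 38.7 to 39.2. The part of these markers in the lower mitosis genes was not tested.

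Over the 8 h of the time course, mitosis genes moved in both directions. At 8 h against 0 h, 20 were called lower and 8 higher in Mettl14 knockdown, where 19.4% of all tested genes were lower and 36.8% higher. The counts were 20 lower and 12 higher in Mettl3 knockdown (19.2% and 36.9% of all), and 18 lower and 12 higher in scramble (21.6% and 39.2% of all). The medians over the 44 genes were -0.07 in Mettl14 knockdown, -0.01 in Mettl3 knockdown and -0.03 in scramble, beside 0.12, 0.11 and 0.15 over all tested genes. Without replicate 2 at 8 h, 5 were higher in Mettl14 knockdown. In all 3 treatments 17 genes were lower and 7 were higher (Ccnb2, Cdc25b, Birc5, Cdca8, Pttg1, Spc24 and Tpx2). No gene was called lower in 1 treatment and higher in another, and Espl1, Nuf2, Kif2c, Kif20a, Kif23, Smc2 and Smc4 had no call. The shares of all tested genes that met the same conditions over the 3 treatments are not given here. The higher calls depended on the scaling. With each array scaled so that the 22 long-lived transcripts had a median deviation of 0 from their own means, a setting chosen after seeing the data, the median of all tested genes was -0.08, -0.09 and -0.01 (Mettl14 knockdown, Mettl3 knockdown and scramble). Lower calls then made up 66.3%, 67.1% and 61.1% of the calls over all genes, compared with 34.5%, 34.1% and 35.5%, and 23 mitosis genes were lower in all 3 treatments and 2, Spc24 and Cdc25b, higher.

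The 5 mitotic kinases were all called lower at 8 h in all 3 treatments. Plk4 had 10.05 and 9.96 at 0 h, 8.95 and 8.95 at 4 h and 8.58 and 8.74 at 8 h in Mettl14 knockdown. It had 10.07 and 10.07, 8.98 and 8.90, and 8.94 and 8.74 in Mettl3 knockdown, and 10.09 and 10.18, 9.01 and 8.93, and 8.69 and 8.71 in scramble, at the same times. Most of the drop was present at 4 h, and the 3 treatments lay close to each other at each time. The 8 h changes were -1.34 ± 0.07 (adjusted p = 4.07e-08) in Mettl14 knockdown, -1.23 ± 0.07 (adjusted p = 9.11e-08) in Mettl3 knockdown and -1.44 ± 0.07 (adjusted p = 1.53e-08) in scramble, the largest of the 44 genes in each. Plk1 had 11.82 and 11.86, 11.51 and 11.56, and 11.03 and 11.07 at 0 h, 4 h and 8 h in Mettl14 knockdown. It had 11.88 and 11.88, 11.61 and 11.63, and 11.03 and 11.14 in Mettl3 knockdown, and 12.07 and 12.09, 11.88 and 11.85, and 11.39 and 11.38 in scramble. Its level was lower at each later time, and the knockdown arrays lay below the scramble arrays at every time. The 8 h changes were -0.79 ± 0.05 (adjusted p = 9.52e-08), -0.79 ± 0.05 (adjusted p = 1.01e-07) and -0.69 ± 0.05 (adjusted p = 2.08e-07) in Mettl14 knockdown, Mettl3 knockdown and scramble.

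Aurka had 11.34 and 11.43, 11.02 and 11.09, and 10.77 and 10.80 at 0 h, 4 h and 8 h in Mettl14 knockdown. It had 11.32 and 11.27, 11.02 and 11.04, and 10.70 and 10.76 in Mettl3 knockdown, and 11.40 and 11.49, 11.15 and 11.20, and 10.81 and 10.85 in scramble. The treatments lay close to each other while all arrays declined with time, by -0.60 ± 0.05 in Mettl14 knockdown, -0.57 ± 0.05 in Mettl3 knockdown and -0.61 ± 0.05 in scramble at 8 h (adjusted p = 2.41e-06, 3.74e-06 and 1.7e-06). Nek2 changed by -0.79, -0.73 and -0.68, and Aurkb by -0.32, -0.48 and -0.36, in the same order. Among other roles, Prc1, Kif11, Ndc80, Spc25, Cenpe, Cenpf, Incenp, Ccna2, Cdk1, Ttk, Ect2 and Top2a were lower in all 3 treatments as well. Prc1 had 11.03 and 11.09, 10.68 and 10.79, and 10.14 and 10.30 in Mettl14 knockdown, 11.17 and 11.10, 10.82 and 10.79, and 10.29 and 10.32 in Mettl3 knockdown, and 11.45 and 11.49, 11.31 and 11.26, and 10.96 and 11.11 in scramble, at 0 h, 4 h and 8 h. The scramble arrays stayed above the knockdown arrays at each time, and the distance was widest at 8 h. The 8 h changes of Prc1 were -0.84 ± 0.07 (adjusted p = 8.24e-07), -0.83 ± 0.07 (adjusted p = 9.92e-07) and -0.43 ± 0.07 (adjusted p = 0.000159) in Mettl14 knockdown, Mettl3 knockdown and scramble.

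In the other direction, Spc24 had 9.13 and 9.09, 9.63 and 9.56, and 9.78 and 9.71 at 0 h, 4 h and 8 h in Mettl14 knockdown. It had 9.09 and 9.01, 9.60 and 9.47, and 9.65 and 9.75 in Mettl3 knockdown, and 9.54 and 9.55, 9.85 and 9.92, and 10.02 and 10.02 in scramble. The mean level was higher at each later time in all 3 treatments, while that of Spc25, its partner in the NDC80 complex, was lower at 8 h (-0.66, -0.35 and -0.29 in Mettl14 knockdown, Mettl3 knockdown and scramble). The 8 h changes of Spc24 were 0.63 ± 0.06 (adjusted p = 3.23e-06), 0.64 ± 0.06 (adjusted p = 3e-06) and 0.48 ± 0.06 (adjusted p = 2.83e-05) in the same order. Under this scaling of long-lived transcripts they were 0.43, 0.45 and 0.32. Cdc25b had 8.41 and 8.14, 8.64 and 8.68, and 8.77 and 8.93 in Mettl14 knockdown, 8.07 and 8.22, 8.68 and 8.53, and 8.59 and 8.62 in Mettl3 knockdown, and 8.32 and 8.34, 8.91 and 8.84, and 8.81 and 8.81 in scramble. Every array at 4 h and 8 h was above both arrays of the same treatment at 0 h. The 8 h changes were 0.57 ± 0.09 (adjusted p = 0.000141), 0.46 ± 0.09 (adjusted p = 0.000685) and 0.48 ± 0.09 (adjusted p = 0.000516), and under the long-lived scaling 0.37, 0.26 and 0.32.

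Birc5 had 9.94 and 9.87, 10.18 and 10.13, and 10.25 and 10.36 in Mettl14 knockdown, 9.94 and 9.94, 10.11 and 10.11, and 10.38 and 10.26 in Mettl3 knockdown, and 9.93 and 9.96, 10.12 and 10.12, and 10.17 and 10.28 in scramble, at 0 h, 4 h and 8 h. The 3 treatments started and ended at similar levels. Birc5 changed at 8 h by 0.40 ± 0.06 (adjusted p = 0.000112), 0.38 ± 0.06 (adjusted p = 0.000166) and 0.28 ± 0.06 (adjusted p = 0.00147). Cdca8, its partner, had 9.89 and 9.76, 10.03 and 9.96, and 9.97 and 10.12 in Mettl14 knockdown, 9.85 and 9.75, 10.06 and 10.06, and 10.04 and 10.02 in Mettl3 knockdown, and 10.09 and 10.12, 10.33 and 10.36, and 10.44 and 10.46 in scramble. All scramble arrays of a time lay above the knockdown arrays of that time. Its 8 h changes were 0.22 ± 0.06 (adjusted p = 0.0111), 0.23 ± 0.06 (adjusted p = 0.00743) and 0.34 ± 0.06 (adjusted p = 0.000515). Under the long-lived scaling Birc5 was called higher in Mettl14 knockdown alone and Cdca8 in no treatment.

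**Figure D5:**
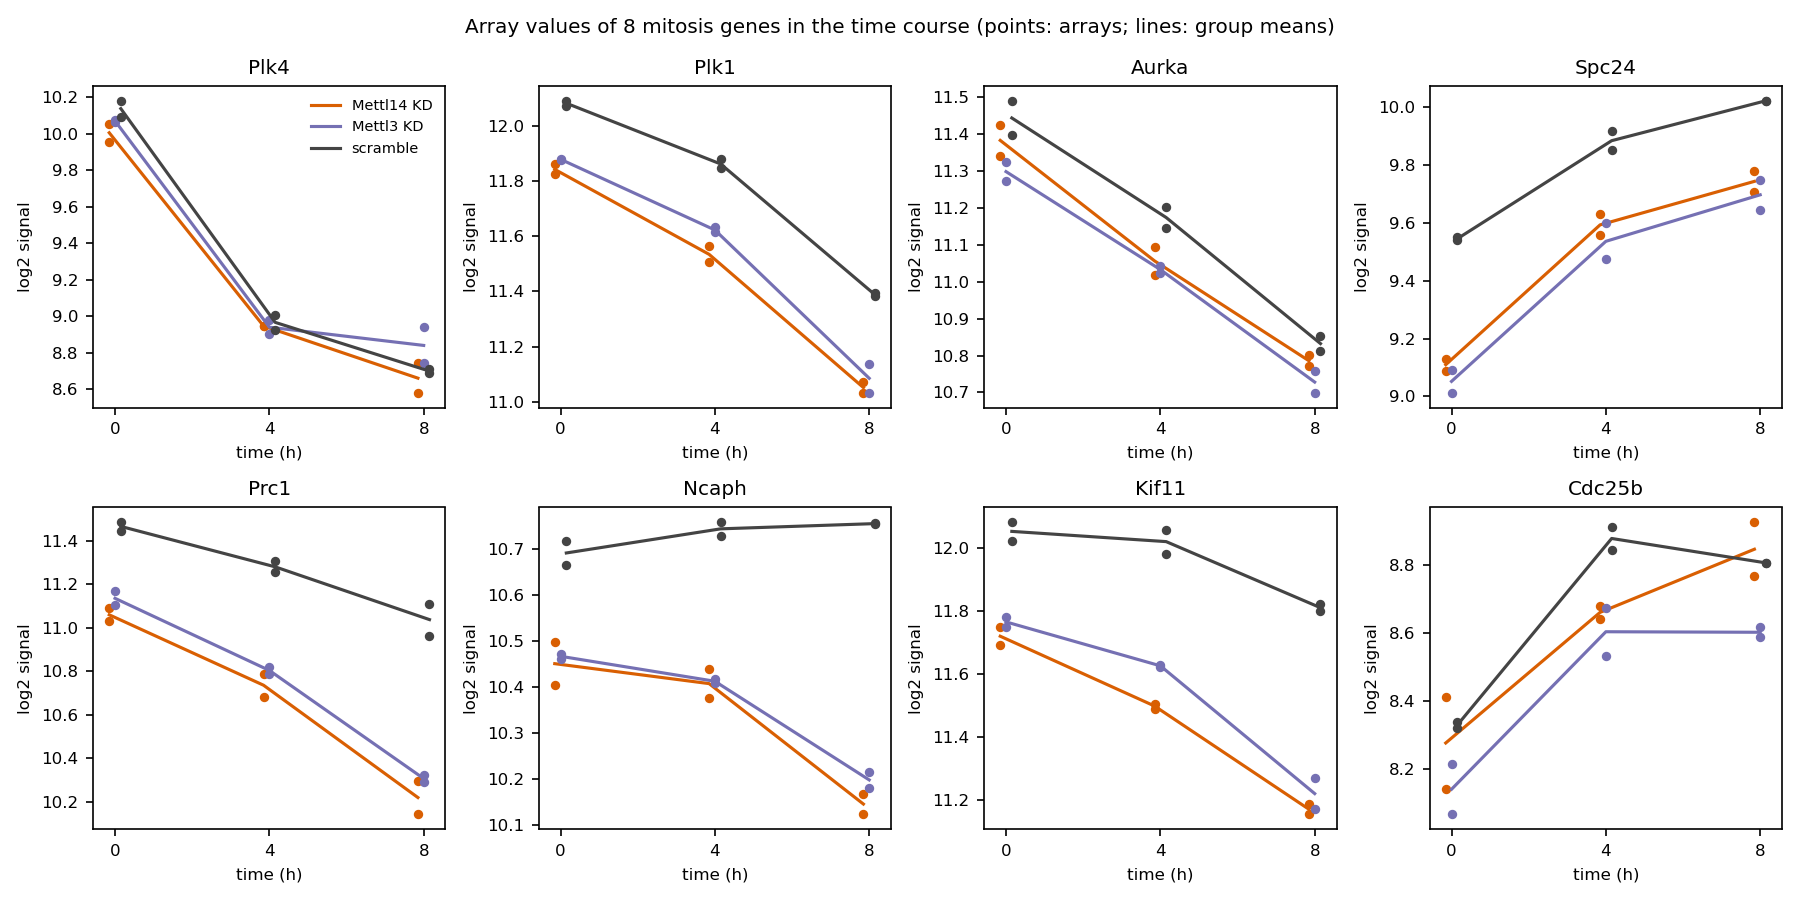
Log2 signal of Plk4, Plk1, Aurka, Spc24, Prc1, Ncaph, Kif11 and Cdc25b at 0 h, 4 h and 8 h in Mettl14 knockdown, Mettl3 knockdown and scramble; each point is 1 array and lines join the means of 2 arrays. Plk4 is lower at 4 h and 8 h in all 3 treatments, Prc1, Ncaph and Kif11 fall further in the knockdowns, and Spc24 and Cdc25b rise.

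At 4 h against 0 h, the calls were 14 lower and 7 higher in Mettl14 knockdown (13.1% and 33% of all tested genes), 13 lower and 9 higher in Mettl3 knockdown (13.1% and 31.5%), and 6 lower and 12 higher in scramble (13.5% and 32.7%). Plk4 changed by -1.06, -1.13 and -1.17 in Mettl14 knockdown, Mettl3 knockdown and scramble. Plk1 and Aurka were also lower in each, Plk1 by -0.31, -0.26 and -0.22, and Aurka by -0.33, -0.27 and -0.27. Spc24 was higher by 0.48, 0.48 and 0.34. When 1 array was left out, the higher counts were 3 to 6 in Mettl14 knockdown, with 4 without its 0 h replicate 2 or 4 h replicate 1 and 3 without its 4 h replicate 2, and 5 to 9 in Mettl3 knockdown, with 5 without either 4 h array and 8 lower calls without either 4 h array or 0 h replicate 1. In scramble they were 3 to 8, with 3 without 4 h replicate 1, 7 without 4 h replicate 2 and 6 without 0 h replicate 2. With the long-lived transcripts at a median deviation of 0, 22, 21 and 14 were lower and 1, 2 and 2 higher in Mettl14 knockdown, Mettl3 knockdown and scramble, where lower calls made up 61.8%, 63.4% and 53.2% of those over all genes, compared with 28.5%, 29.3% and 29.3%.

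The 8 h change itself was compared between each knockdown and scramble. It was lower in Mettl14 knockdown for 6 of 44 genes (1.41% of all tested genes) and in Mettl3 knockdown for 4 of 44 (1.01% of all), and higher for none by limma, against 3.58% and 2.46% of all. At an unadjusted p below 0.05, none was higher for Mettl14, and Mki67 was for Mettl3. The 6 genes were Ncaph, Prc1, Kif11, Ccna2, Ndc80 and Ttk, and the 4 were Ncaph, Prc1, Kif11 and Ccna2, with the scramble arrays shared by both differences. Ncaph had 10.50 and 10.40, 10.38 and 10.44, and 10.12 and 10.17 at 0 h, 4 h and 8 h in Mettl14 knockdown, 10.46 and 10.47, 10.42 and 10.41, and 10.22 and 10.18 in Mettl3 knockdown, and 10.72 and 10.67, 10.76 and 10.73, and 10.76 and 10.76 in scramble. Its level was flat in scramble and lower at 8 h in both knockdowns, and the differences were -0.37 ± 0.07 (adjusted p = 0.0107) and -0.33 ± 0.07 (adjusted p = 0.0213). For Prc1 they were -0.41 ± 0.09 (adjusted p = 0.0294) and -0.40 ± 0.09 (adjusted p = 0.0392). For Kif11, which at 8 h had 11.15 and 11.19 in Mettl14 and 11.17 and 11.27 in Mettl3 knockdown against 11.82 and 11.80 in scramble, they were -0.31 ± 0.07 (adjusted p = 0.0316) and -0.30 ± 0.07 (adjusted p = 0.0399). Leaving out any 1 of the 8 arrays behind a difference gave 1 to 3 lower calls for Mettl14 and 0 to 2 for Mettl3, and scaling each array to an equal median of the long-lived transcripts gave none.

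The knockdown effects at 0 h were also compared between the sets, in a fit over all 26 arrays. For Mettl14, the time course effect minus the repeat effect was called below 0 for 5 of 44 genes (8.64% of all tested genes). None was called above 0 (7.86% of all), and none had an unadjusted p below 0.05 in that direction. For Mettl3, the difference was called below 0 for 3 genes (3.66% of all) and above 0 for 1, Bub3 (6.15% of all). Spc24 differed for both: in the repeat it had 8.71 and 8.75 in Mettl14 knockdown against 8.69 and 8.75 in its scramble, and 8.68 and 8.77 in Mettl3 knockdown against 8.78 and 8.77 in its scramble. Mettl14 knockdown overlapped its scramble there and Mettl3 knockdown lay just below its own, while at 0 h of the time course both lay well below scramble, and the differences between sets were -0.44 ± 0.08 (adjusted p = 0.000705) for Mettl14 and -0.44 ± 0.08 (adjusted p = 0.00118) for Mettl3. Aurkb had 10.70 and 10.73 in Mettl14 and 10.64 and 10.65 in Mettl3 knockdown of the time course, against 10.88 and 10.95 in scramble. In the repeat it had 10.96 and 10.91 in Mettl14 knockdown against 10.88 and 10.90, and 10.91 and 10.95 in Mettl3 knockdown against 10.84 and 10.92. It was below control in the time course alone, and the differences were -0.25 ± 0.07 (adjusted p = 0.018) and -0.32 ± 0.07 (adjusted p = 0.005).

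Cenpf had 10.46 and 10.41 in Mettl14 knockdown against 10.83 and 10.80 in scramble of the time course, but 10.13 and 10.14 against 10.08 and 10.07 in the repeat, a difference of -0.45 ± 0.07 (adjusted p = 0.000286). Nek2 had 9.71 and 9.87 in Mettl3 knockdown against 10.42 and 10.36 in scramble of the time course and 9.82 and 9.80 against 9.93 and 9.98 in the repeat, a difference of -0.45 ± 0.12 (adjusted p = 0.0219). For both genes the knockdown lay clearly below control in the time course, while in the repeat Cenpf lay slightly above and Nek2 slightly below it. Bub3 went the other way for Mettl3, with 12.27 and 12.15 in knockdown against 12.37 and 12.36 in scramble of the time course and 11.93 and 11.94 against 12.28 and 12.31 in the repeat, a difference of 0.20 ± 0.06 (adjusted p = 0.0349). Racgap1 (-0.21) and Top2a (-0.18) were the other genes that differed for Mettl14. Leaving out 1 array gave 2 to 4 lower calls for Mettl14, with 2 or 3 for each array but scramble replicate 1 of the time course, and the call of Bub3 was lost without any 1 of 7 of its 8 arrays (all but Mettl3 knockdown replicate 2 of the time course) and without replicate 2 of both repeat scramble controls. With arrays scaled to an equal median of the long-lived transcripts, the difference was called below 0 for 42 genes for Mettl14 and 38 for Mettl3. The lower share of all calls was then 94.0% and 95.6%, compared with 52.4% and 37.3%. In that setting the difference of Bub3 was -0.08.

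Over the 9 groups of the time course, the distance between the highest and the lowest group mean of a gene had a median of 0.61. It was smallest for Kif23 (0.14), Nuf2 (0.17) and Mad2l1 (0.20), and widest for Plk4 (1.48), Nek2 (1.33), Prc1 (1.25), Ndc80 (1.07) and Plk1 (1.03). The lowest group was a knockdown group for 44 of 44 genes, against 56.5% of all tested genes, and the highest a scramble group for 40 of 44, against 45.9% of all, where 6 of the 9 groups are knockdown groups. For Kif23 the distance was smaller than the gap of 0.31 between replicates of 1 group. For the other 43 genes (97.7% of 44) it exceeded the largest such gap, against 87.7% of all tested genes. The mean signal over the 44 genes at 0 h was 10.86 and 10.84 on the Mettl14 knockdown arrays and 10.83 and 10.84 on the Mettl3 knockdown arrays, against 11.08 and 11.09 in scramble. At 8 h it was 10.64 and 10.69 in Mettl14 knockdown and 10.69 and 10.70 in Mettl3 knockdown, against 10.99 and 11.00 in scramble. In the repeat set it was 10.68 and 10.69 in Mettl14 knockdown against 10.79 and 10.81 in its scramble, and 10.63 and 10.65 in Mettl3 knockdown against 10.82 and 10.83 in its scramble. In each of these comparisons the knockdown arrays lay below both control arrays.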

How the data were processed

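RNA was measured on 26 Affymetrix Mouse Gene 2.0 ST arrays in 13 groups of 2. The deposited values are log2 signals per probe set, and the submitters' processing notes name RMA and oligo, without versions, for how the authors made them. RMA is meant to give arrays 1 distribution, so a change shared by most genes may not be seen. The deposited values did not share 1 distribution. The mean over all probe sets was 6.84 and 6.83 on the scramble arrays at 0 h and 6.69 and 6.69 at 8 h. In the repeat it was 6.64 and 6.64 in the scramble of Mettl14. Quantile normalization again within the set moved the median change of all tested genes at 4 h in scramble from 0.13 to 0.22. Joint processing of the 26 arrays is not stated in the sources used here. Of 41345 probe sets, 23521 had 1 gene symbol in the platform annotation, 1814 had several and 16010 were not listed. Symbols were checked against RefSeq, and 0 were updated.

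The brightest probe set stood for each of 22180 genes. A filter dropped the dimmest 0.333 of genes by mean signal (7393), which left 14787 for the test with limma 3.58.1 in R 4.3.3 (lmFit, eBayes), with Benjamini-Hochberg adjustment over all of them and a threshold of 0.05. The time course (18 arrays, 9 residual degrees of freedom) and the repeat set (8 arrays, 4) were fitted apart, and the comparison between the sets used all 26 arrays (13). Errors in the text are limma's standard errors. Replicate arrays correlated at 0.987 to 0.993 across probe sets, which are not independent of each other, and the number of arrays limits the precision. The limma fit was tested on simulated data with known changes, and the other steps were not.

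The members and gene lists were chosen with earlier results of these data known. Members are given array by array where they had 1 of the 3 smallest adjusted p in a direction among calls. This holds for calls at 0 h and of the 8 h change. Elsewhere, not all of the 3 smallest are given by value. Knockdown effects at 8 h are given for the lowest changes and for Cdk1. Other lists name up to 2 called genes a direction. All members could be named, and those given array by array beyond this rule were chosen after their values were seen. Alternatives were other filters, variance models, weights and scalings, a replicate block, a fit over all arrays, and leaving out arrays.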

Additional observations from a re-analysis of the deposited data

Results flagged for a closer look

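The 8 h change in a knockdown differed from that in scramble, by limma with Benjamini-Hochberg adjustment, for 3 of the mitosis genes given by value. For Ncaph the change in knockdown minus that in scramble was -0.37 for Mettl14 (adjusted p = 0.0107) and -0.33 for Mettl3 (adjusted p = 0.0213). For Prc1 it was -0.41 for Mettl14 (adjusted p = 0.0294) and -0.40 for Mettl3 (adjusted p = 0.0392). For Kif11 it was -0.31 for Mettl14 (adjusted p = 0.0316) and -0.30 for Mettl3 (adjusted p = 0.0399). Both differences use the same scramble arrays.

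The 0 h knockdown effect differed between the time course and the repeat set, by the same test, for 5 of the genes given by value. For Spc24 the time course effect minus the repeat effect was -0.44 for Mettl14 (adjusted p = 0.000705) and -0.44 for Mettl3 (adjusted p = 0.00118). For Aurkb it was -0.25 for Mettl14 (adjusted p = 0.018) and -0.32 for Mettl3 (adjusted p = 0.005). For Cenpf it was -0.45 in the Mettl14 comparison (adjusted p = 0.000286), for Nek2 -0.45 in the Mettl3 comparison (adjusted p = 0.0219), and for Bub3 0.20 in the Mettl3 comparison (adjusted p = 0.0349). Set and control arrays change together, so a batch and the set cannot be told apart.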

How the results depend on the processing

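Counts are mitosis genes called by limma. With 1 array left out, lower calls at 0 h, 4 h and 8 h were 27 to 29, 29 to 31 and 30 to 32 in Mettl14 knockdown and 26 to 30, 26 to 27 and 27 to 28 in Mettl3 knockdown, with 0 to 1 higher for Mettl3 at 8 h, and in the repeat 8 to 13 and 16 to 22. Left-out arrays gave 11 to 14 lower and 3 to 6 higher calls at 4 h against 0 h in Mettl14 knockdown, 8 to 10 lower and 5 to 9 higher in Mettl3 knockdown and 3 to 8 higher in scramble, and 5 to 8 higher at 8 h against 0 h in Mettl14 knockdown. They gave 1 to 3 and 0 to 2 lower calls (Mettl14, Mettl3) for the 8 h change minus that of scramble, and for the set difference 2 to 4 lower for Mettl14 and 0 to 1 higher for Mettl3.

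With arrays scaled to an equal median of long-lived transcripts, 4 h against 0 h gave 22, 27 and 20 lower and 1, 1 and 1 higher calls in Mettl14 knockdown, Mettl3 knockdown and scramble, and at 8 h 34 lower in scramble and 2, 1 and 0 higher. The same scaling gave 15 lower and 1 higher in each repeat comparison, with 26 lower as deposited for Mettl3, 0 and 0 lower for the 8 h change minus that of scramble, and 42 and 38 lower with 0 higher for the set difference. The change of Bub1b at 4 h in scramble became -0.00311, and the set difference of Bub3 -0.077. In this setting 44, 42 and 37 genes were lower in Mettl14 knockdown at 0 h, 4 h and 8 h, and 44, 43 and 35 in Mettl3 knockdown. Lower calls then made up 80.6% and 84.6% of all calls in the 4 h knockdown comparisons (49.4% and 48.8% as deposited), 67.5% and 63.6% at 8 h (45.4% and 44.4%), 64.4%, 86.5% and 80.1% at 4 h against 0 h and 70.9%, 76.7% and 89.7% at 8 h against 0 h. For the 8 h change minus that of scramble they made up 6.99% and 10.4% (28.2% and 29.0%).

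The median deviation of the same transcripts, chosen after seeing the data, gave 22, 21 and 14 lower and 1, 2 and 2 higher at 4 h against 0 h, 3, 2 and 2 higher at 8 h, 3 and 2 lower for the 8 h change minus that of scramble (39.9% and 43.3% of all calls), and 2 lower for the Mettl14 set difference. It put lower calls at 57.5% in the Mettl14 repeat and at 40.0% and 24.6% in the set differences. Quantile normalization again gave 14 lower at 4 h in scramble, with 25.3% of all calls lower there at 8 h and 45.1% and 45.9% for the 8 h change minus that of scramble.

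The variance model with trend and robust fitting gave 28 lower and 1 higher in the Mettl14 repeat, 14 higher at 4 h in Mettl3 knockdown, 7 lower for Mettl3's 8 h change minus that of scramble, and 8 and 5 lower for the set differences. Without the dim filter, 5 were higher at 4 h in Mettl3 knockdown, 1 and 0 lower for the 8 h change minus that of scramble, 3 lower for the Mettl14 and 0 higher for the Mettl3 set difference. The dim filter at 0.5 gave 1 higher in the Mettl14 repeat, array weights 2 and 2 and the fit over 26 arrays 7 (Mettl3) lower for the 8 h change minus that of scramble. Without replicate 2 of both repeat scramble controls, chosen after seeing the data, 6 and 12 were lower in the repeat, 3 for the Mettl14 set difference, and 0 higher for that of Mettl3. The cause was not tested. Over the alternatives other than leaving out 1 array, 318 counts lay within 1.5 times of the count as first given and 50 did not. With 1 array left out, 128 did and 48 did not.

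In their deviations from group means, same-numbered arrays correlated at -0.44 to 0.34 over 36 pairs of time course groups. Over 6 pairs of the repeat the correlations were -0.05 to 0.04. With 2 arrays a group, these values cannot decide whether same-numbered arrays came from 1 experiment. With a replicate block 30 and 32 genes were lower at 0 h, 16 and 26 in the repeat, 5 and 3 for the 8 h change minus that of scramble, and 5 and 4 for the set differences, and no count moved by more than 1.5 times.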
